A study of Mus musculus with 6 samples.

Results

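Solute carriers were examined in bone marrow megakaryocyte progenitors, the cells that give rise to platelets, with and without the transcription factor Scl. They were taken as all array probes whose gene symbol starts with Slc and a number, leaving out Slc4a1, Slc25a37 and Slc25a38. A probe was kept if it lay above background (detection p under 0.05) on at least 3 of the 6 arrays. This gave 209 probes of 163 genes, out of 602 Slc probes of 345 genes on the array, and out of 16122 kept probes of 8946 genes in the whole series. Of the 602 probes, 354 lay above background on no array and 39 on 1 or 2 arrays. The kept share was 34.7%, against 40.7% of all probes with 1 gene symbol. Of the kept probes, 172 were above background on all 6 arrays and 37 on 3 to 5. The 10 probes just inside the filter, above background on exactly 3 arrays, had mean log2 signals of 6.61 to 6.89, and the 12 just outside it, above background on exactly 2 arrays, had 6.53 to 6.75.

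The cells were sorted from mice of 3 to 4 months on a mixed 129SVxC57Bl/6 background. Every mouse carried a Cre transgene under the promoter of Pf4, a platelet chemokine gene used to drive recombination in the megakaryocyte lineage. The 3 control samples had both Scl alleles intact (Pf4-Cre;Scl wt/wt, titled +/+), and the 3 other samples had both alleles floxed (Pf4-Cre;Scl fl/fl), with excision described as complete. They are called wild-type and Scl-deleted below. No label tells separate animals from pools or repeat hybridisations, so the p-values cover only the variation among these 6 samples, which may be technical. The study compared the RNA of these groups to ask which genes differ when Scl is removed.

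Solute carriers are membrane proteins that move amino acids, sugars, ions, metals, vitamins and metabolites across the plasma membrane and the membranes of organelles. Most work as secondary transporters, which couple the substrate to a sodium, proton or chloride gradient, exchange it for another molecule, or let it pass down its own gradient. In platelets and their precursors they are known for taking up serotonin and loading it and adenine nucleotides into dense granules, and for taking up glucose. Scl, whose gene is Tal1, is a basic helix-loop-helix protein that binds E-boxes and acts with GATA factors in blood cells. The kept genes were grouped by family number into amino acid and peptide, sugar, nucleotide sugar, ion, metal, mitochondrial (Slc25) and other carriers. The last group holds urea, monocarboxylate, choline, fatty acid, nucleoside, vitamin and vesicular carriers. The rule also takes in 6 probes of 4 genes that are named after a carrier but encode none, such as Slc9a3r1, a scaffold protein.

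The cells carried the defining megakaryocyte transcripts, with 10 of 12 listed markers kept, among them Pf4, Itga2b, Gp5 and Vwf. The summed linear signal of the 10 was 51093 to 55611 on wild-type and 41405 to 50085 on Scl-deleted arrays. Of the erythroid markers 10 of 17 were kept (9568 to 10896 against 8297 to 12692, with Alas2, Rhd and Rhag not kept). The neutrophil list had 9 of 14 kept (6977 to 12047 against 6274 to 7704), and all 9 had lower means in Scl-deleted samples. For lymphoid cells 5 of 12 were kept (6835 to 6994 against 6847 to 13283, without Cd79a or Cd3e), for mast cells and basophils 5 of 11, and for monocytes and macrophages 2 of 12. None of these markers passed an adjusted p of 0.05 in limma, where 0.614% of all kept probes did. Their part in the results below was not tested. Tal1 itself had log2 signals of 12.82, 13.27 and 13.29 on wild-type arrays and 11.21, 9.85 and 11.45 on Scl-deleted arrays, a difference of -2.29 ± 0.37 (SE; limma adjusted p = 0.0399) that kept its size but not its call under several alternatives. The position of the Tal1 probe relative to the excised exons was not analysed here, so it may not check the deletion. Wild-type arrays 1 and 2 were the most alike pair. They correlated at 0.995 over all kept probes, and the other pairs at 0.969 to 0.991. These values do not tell an unusual array 3 from arrays 1 and 2 being unusually alike. Array 3 was nearer to the Scl-deleted mean than to the mean of the other wild-type arrays for 115 of the 209 Slc probes (55.0%) and for 60.6% of all kept probes. The first of these means is over 3 arrays and the second over 2, so the shares have no simple neutral value. For Slc probes named below whose call turns on wild-type array 3, the value without it stands beside the main one. That fit leaves the most alike pair as the only wild-type arrays. It raised the calls over all kept probes from 99 to 1618, so its p-values are no added support. The samples also differed in Xist, with 10.55, 10.90 and 9.25 on wild-type and 6.66, 6.95 and 10.55 on Scl-deleted arrays. The Y chromosome gene Eif2s3y was above background on all 6 arrays, at 7.37, 7.64 and 8.22 against 8.67, 8.39 and 7.97, and Uty on 5. The sex of the animals is not given, and whether samples mix sexes was not tested. A fit with Xist as a covariate is described last.

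In these cells 1 of the 209 Slc probes passed an adjusted p of 0.05 (limma over all 16122 kept probes, Benjamini-Hochberg), against 99 of all kept probes (0.614%). The probe was that of Slc6a13 and it was higher in Scl-deleted cells, a direction in which 0.44% of all kept probes were called (0.174% lower). At an unadjusted p of 0.05 there were 43 Slc probes, 24 higher and 19 lower, against 15.4% of all kept probes, and 7 Slc probes had an adjusted p under 0.1, against 1.33%. The groups did not overlap for 44 Slc probes, 23 higher and 21 lower (21.1%), against 18% of all kept probes. These counts include probes kept only through 1 group, whose direction the filter set. Both Slc5a9 probes, kept only through the Scl-deleted group, are in the 43 and in the 44, and 1 of them is in the 7. A Slc44a2 probe kept only through the wild-type group is in the 44. The family's differences lay on both sides of 0. Of the 209 probes 105 had a higher and 104 a lower mean in Scl-deleted cells, with a median difference of 0.00 (log2; 0.01 over all kept probes) and a median size of difference of 0.13, against 0.12 over all kept probes. A difference of more than 0.5 in either direction was seen for 9 Slc probes (4.31%), both Slc5a9 probes among them, and for 4.81% of all kept probes. The median spread within groups was 0.13 (SD) for Slc probes and 0.14 for all. All values are log2 signals as normalized by the authors unless stated otherwise. Since the RNA came from bulk sorted cells, fewer cells of a type and less RNA per cell cannot be told apart.

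**Figure D1:**
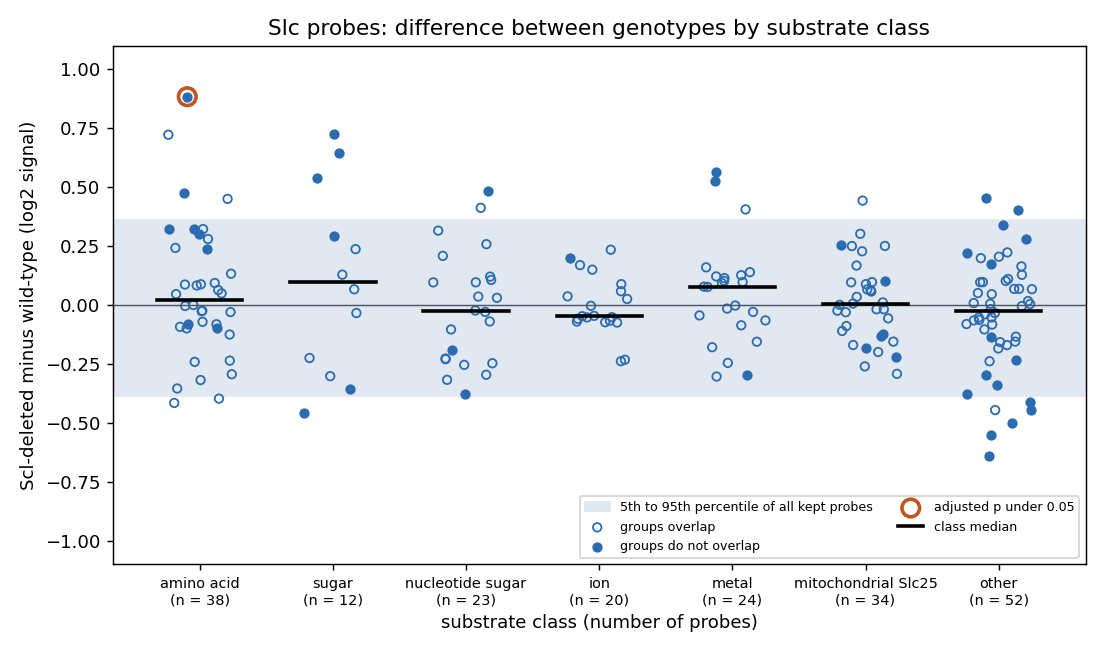
Difference in log2 signal, Scl-deleted minus wild-type, for 203 Slc probes by substrate class (horizontal axis); the 6 probes of genes that encode no carrier are not drawn. Filled points are probes whose groups do not overlap, black lines are class medians, the ring marks Slc6a13, and the grey band holds the range of all kept probes between the percentiles named in the legend (-0.39 to 0.36); class medians lie between -0.05 and 0.10.

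Amino acid and peptide carriers held the 1 probe that passed. Slc6a13 (chromosome 6), a sodium- and chloride-coupled transporter of GABA, gave log2 signals of 9.35, 9.14 and 9.36 on wild-type arrays and 9.89, 10.48 and 10.13 on Scl-deleted arrays. All 3 Scl-deleted values lay above all 3 wild-type values. This 0.88 ± 0.15 (SE) log2 rise, or 1.85-fold, passed in limma (adjusted p = 0.0477). Its adjusted p was 0.0137 without wild-type array 3 and 0.0687 to 0.245 without any 1 of the other arrays, with differences of 0.73 to 1.02, and 0.0737 after background correction with neqc of limma. Over all alternatives it ran from 0.00770 to 0.436, and 5 of the 16 kept the call. It was highest on Scl-deleted array 2. That array also had the highest summed signal of the erythroid (12692), lymphoid (13283) and mast cell and basophil (1040) markers. Within the erythroid list the globin gene Hba-a1 was highest there (10.77) while Car2 (9.40) and Aqp1 (11.61) were lowest there. The lymphoid list was also split. Nkg7 (13.55), its brightest kept gene, and Vpreb1 (7.66) were highest there, while Cd79b (9.75) and Ms4a1 (6.75) were lowest there. Among mast cell and basophil markers Fcer1a (8.76), Cpa3 (8.17) and Cma1 (6.97) were highest there and Prss34 (6.41) was lowest there. The part of these cell types in the Slc6a13 values was not tested.

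The 250 bases before the first annotated start of Slc6a13 and of Slc16a9, the Slc probes with the highest and the lowest difference, are shown because Scl binds E-boxes (from RefSeq, GRCm38.p6, both on the plus strand, chr6:121300038-121300287 and chr10:70245026-70245275). Capitals mark E-boxes, CANNTG on either strand.
Slc6a13: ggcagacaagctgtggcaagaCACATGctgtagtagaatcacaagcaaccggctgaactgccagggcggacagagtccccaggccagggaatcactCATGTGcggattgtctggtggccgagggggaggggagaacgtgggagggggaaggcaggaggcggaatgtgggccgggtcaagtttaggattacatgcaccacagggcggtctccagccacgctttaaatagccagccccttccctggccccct
Slc16a9: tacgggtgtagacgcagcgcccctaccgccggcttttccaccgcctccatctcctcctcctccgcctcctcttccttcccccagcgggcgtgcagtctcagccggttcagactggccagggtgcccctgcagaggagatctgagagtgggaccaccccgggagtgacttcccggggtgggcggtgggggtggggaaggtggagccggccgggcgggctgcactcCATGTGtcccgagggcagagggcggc
The Slc6a13 window held 2 E-boxes and the Slc16a9 window 1. An E-box is common at this length, occurring in 66.2% of the 32851 gene windows of the table. Neither window held GATA on either strand (53.6% of windows) or CTG followed 7 or 8 bases later by GATA (4.05%). For Slc6a13 the table lists 3 start windows, of which only the outermost was read, and no binding data were used.

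Of the 38 amino acid and peptide probes, from 29 genes, 20 had higher and 18 lower means. The class takes in all kept Slc6 genes, a family that also carries neurotransmitters, taurine and creatine. The Slc66 family, lysosomal amino acid carriers and relatives, is counted with the other carriers. The unadjusted p was under 0.05 for 10 (26.3%, against 15.4% of all kept probes). The class median was 0.02. Slc7a7 encodes the light chain of the exchanger of cationic and neutral amino acids y+LAT1. It gave 6.82, 6.86 and 7.02 on wild-type and 7.29, 7.38 and 7.46 on Scl-deleted arrays, without overlap. The difference was 0.48 ± 0.10, 1.39-fold (limma adjusted p = 0.0929; 0.0173 without wild-type array 3 and up to 0.404 without another array).

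Slc43a1, which encodes the large neutral amino acid transporter LAT3, had higher means with both of its probes. One probe gave 8.33, 8.33 and 8.29 against 8.61, 8.63 and 8.68, groups that were tight and did not overlap (0.33 ± 0.08; adjusted p = 0.153). The other gave 8.65, 8.66 and 9.31 against 9.29, 9.45 and 9.23 (0.45 ± 0.18; adjusted p = 0.278), and wild-type array 3 lay among the Scl-deleted values. Without that array the second probe had a difference of 0.67 and a limma adjusted p of 0.00990; without another array it was up to 0.710.

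Slc6a4, the serotonin transporter of the platelet membrane, varied within both groups. One probe gave 6.60, 6.60 and 7.32 against 7.20, 8.36 and 7.13, and the other 6.48, 6.55 and 7.17 against 7.0, 7.48 and 6.69. Both were above background on only 1 wild-type array, and on 3 and 2 Scl-deleted arrays. The differences of 0.72 ± 0.33 and 0.32 ± 0.23 had limma adjusted p-values of 0.336 and 0.549, and the groups overlapped. Scl-deleted array 2 was again the highest.

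The carriers with the highest signals of this class did not pass. Slc7a5, the light chain of LAT1, gave 11.28, 11.44 and 11.90 against 11.67, 11.73 and 11.95 (0.24 ± 0.16; limma adjusted p = 0.515). Slc38a2, the sodium-coupled neutral amino acid transporter SNAT2, gave 11.56, 11.57 and 11.04 against 11.07, 10.73 and 11.12 (-0.41 ± 0.17; limma adjusted p = 0.293), where wild-type array 3 fell within the Scl-deleted range; without it the adjusted p was 0.0293, and up to 0.720 without another array. Slc6a6, the taurine transporter, differed by -0.02 and -0.10 with its 2 probes. Slc1a5, the glutamine carrier ASCT2, differed by -0.24 and 0.05, Slc7a11, the cystine-glutamate exchanger subunit, by -0.10, and Slc38a1 by 0.09, with limma adjusted p-values of 0.455 to 0.854. The heavy chain gene Slc3a2, the partner of the Slc7 light chains, and the cationic amino acid carrier gene Slc7a1 had no kept probe.

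**Figure D2:**
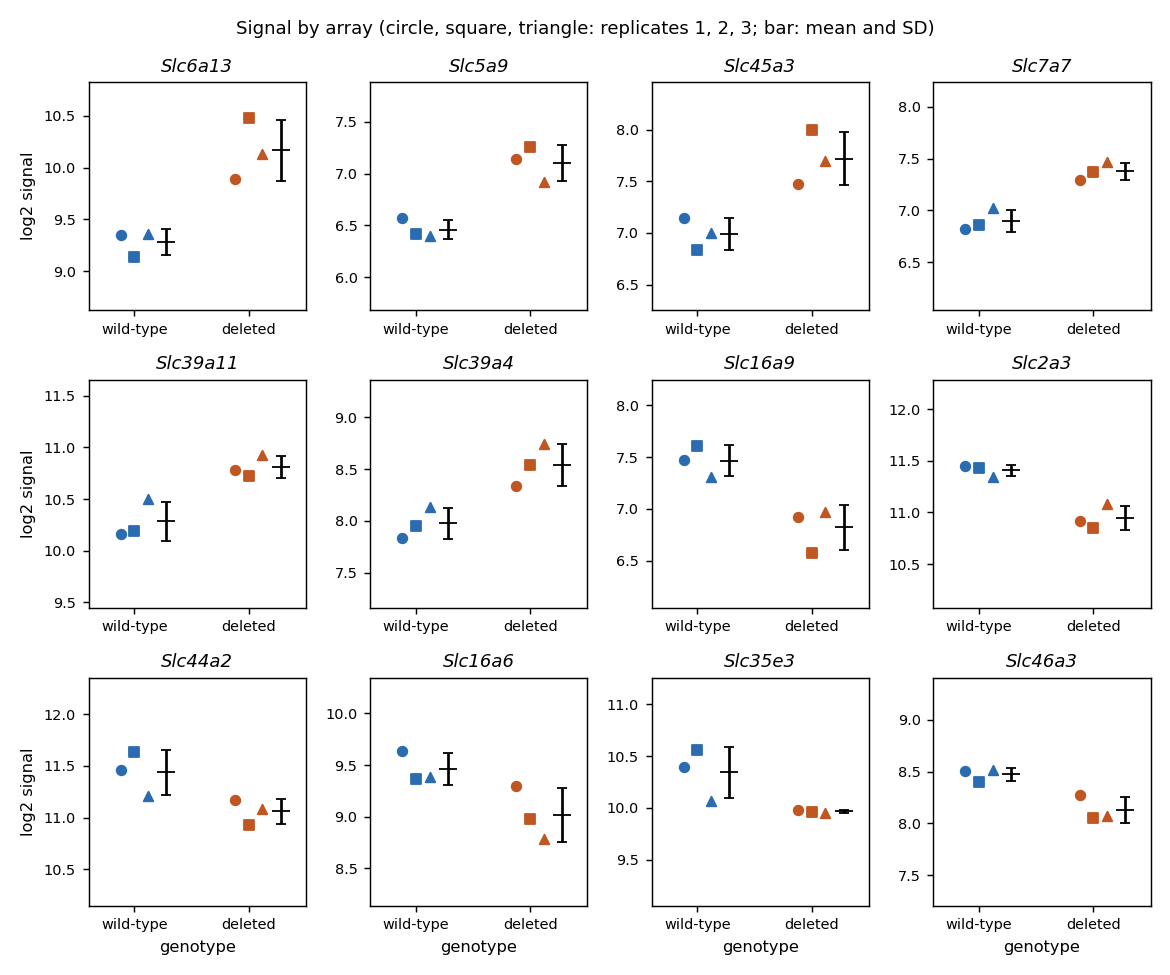
Log2 signal (vertical axes, all spanning the same range) by genotype for 12 Slc probes, with replicates 1, 2 and 3 as circle, square and triangle and the mean and SD beside them. The panels were picked from probes whose groups do not overlap, so the separation in every panel follows from the choice. The Slc5a9 probe was kept only through the Scl-deleted group. Slc6a13 goes from 9.28 to 10.17 and Slc16a9 from 7.46 to 6.82. Wild-type array 3 is the wild-type value nearest to the Scl-deleted ones for Slc6a13, Slc7a7, Slc39a11, Slc39a4, Slc16a9, Slc2a3, Slc44a2 and Slc35e3. For Slc5a9, Slc45a3, Slc16a6 and Slc46a3 another wild-type array is nearest.

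Sugar carriers had 12 kept probes of 10 genes, out of 44 probes of 28 genes on the array. Of the 12, 7 had higher and 5 lower means. An unadjusted p under 0.05 was seen for 6 (15.4% of all kept probes), and 6 did not overlap (18% of all kept probes); both counts include 2 Slc5a9 probes that were kept only through the Scl-deleted group. The median was 0.10, and it was -0.26 with the stricter detection filter.

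Slc5a9, a sodium-coupled sugar transporter of mannose and glucose (SGLT4), was above background on all 3 Scl-deleted and on no wild-type array with both probes. These were the only Slc probes with that pattern, and both passed the filter only through the Scl-deleted group, so their tests support nothing here. One probe gave 6.57, 6.42 and 6.39 on wild-type and 7.14, 7.26 and 6.92 on Scl-deleted arrays (limma adjusted p = 0.0522; 0.0214 without wild-type array 3). Against the lowest detected signal of each wild-type array the Scl-deleted mean was at least 1.31-fold higher, and the second probe (6.37 ± 0.06 against 6.91 ± 0.24, SD, n = 3 each; adjusted p = 0.125) at least 1.14-fold higher. Over all alternatives the limma adjusted p of the first probe ran from 0.0171 to 0.447.

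Slc45a3, also called prostein, a putative sugar carrier, gave 7.14, 6.84 and 6.997 against 7.47, 7.99 and 7.70. The groups did not overlap, and the difference was 0.73 ± 0.15, 1.66-fold (limma adjusted p = 0.0794; 0.0279 without wild-type array 3 and up to 0.348 without another). Its relative Slc45a4 had lower means with both probes, 10.10, 10.11 and 10.23 against 9.98, 9.45 and 9.95 (-0.35 ± 0.15; limma adjusted p = 0.299) and -0.22 with the other.

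Of the 4 kept genes of facilitative glucose transporters (Slc2), 3 had lower means in Scl-deleted cells. Slc2a3, which encodes GLUT3, the main glucose transporter of platelets, gave 11.45, 11.43 and 11.35 against 10.91, 10.85 and 11.08. All Scl-deleted values were below all wild-type values, by 0.46 ± 0.10 on the log2 scale or 1.37-fold (limma adjusted p = 0.0971; 0.0284 without wild-type array 3 and up to 0.404 without another). Slc2a1, which encodes GLUT1, gave 9.13, 9.10 and 8.74 against 8.71, 8.82 and 8.53 (-0.30 ± 0.13; limma adjusted p = 0.326), with overlap through wild-type array 3.

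Metal carriers had 24 kept probes of 19 genes, 13 with higher and 11 with lower means, and a median of 0.08. The unadjusted p was under 0.05 for 3 (12.5%, against 15.4% of all kept probes). The Slc39 (ZIP) family, which brings zinc into the cytosol, had higher means in 6 of its 8 kept probes, with a median of 0.13.

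Slc39a11 gave 10.17, 10.19 and 10.50 against 10.78, 10.72 and 10.93. Slc39a4, known for intestinal zinc uptake, gave 7.84, 7.96 and 8.14 against 8.34, 8.55 and 8.74. Neither gene's groups overlapped, and in both genes array 3 was the highest of the wild-type arrays. The differences were 0.52 ± 0.12 and 0.57 ± 0.13, 1.44-fold and 1.48-fold, each with a limma adjusted p of 0.117. Without wild-type array 3 the adjusted p-values were 0.0111 and 0.0212, and without another array up to 0.442 and 0.422.

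The zinc exporter gene Slc30a1 (ZnT1) had 2 probes that went opposite ways, at -0.30 ± 0.11 without overlap (adjusted p = 0.253) and 0.11 ± 0.09 (limma adjusted p = 0.607), and Slc30a5, a zinc carrier of the secretory pathway, differed by -0.25 and -0.16.

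The iron and copper carriers did not pass. The exporter gene Slc40a1 (ferroportin) gave 7.20, 7.26 and 7.37 against 7.05, 7.34 and 7.67 (0.08 ± 0.15). The importer gene Slc11a2 (DMT1) differed by -0.01, 0.16 and -0.09 with its 3 probes, and the copper importer gene Slc31a1 by 0.00 (9.02 ± 0.09 against 9.02 ± 0.15, SD, n = 3 each). All of their groups overlapped. Slc39a14, a zinc and iron carrier, had no kept probe.

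Nucleotide sugar carriers (Slc35), which supply the Golgi and the endoplasmic reticulum with substrates for glycosylation, had 23 kept probes of 17 genes, with 11 higher and 12 lower means and a median of -0.02. The members with the highest signals had differences of 0.12 or less in size. Slc35b1 differed by -0.07 ± 0.11, Slc35b2, a carrier of the sulfate donor PAPS, by 0.12 and 0.11, and Slc35c1, the Golgi GDP-fucose carrier, by 0.10 ± 0.10, with limma adjusted p-values of 0.578 to 0.809.

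Slc35c2, a Golgi and ER protein linked to fucosylation of Notch, gave 9.66, 9.62 and 10.14 against 10.20, 10.39 and 10.29 with one probe. Those groups were separate (0.48 ± 0.15; limma adjusted p = 0.195), and the other probe had a difference of 0.41 with overlap. Without wild-type array 3 both probes passed, at limma adjusted p-values of 0.0102 and 0.0391, and without another array these were up to 0.593 and 0.798.

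Slc35e3, an orphan member, gave 10.40, 10.56 and 10.07 against 9.98, 9.96 and 9.95. The Scl-deleted values were nearly the same as each other and lay below all wild-type values (-0.38 ± 0.13; limma adjusted p = 0.236; 0.02003 without wild-type array 3 and up to 0.663 without another). Slc35d3, whose loss in mice impairs platelet dense granules, gave 8.95, 9.06 and 9.17 against 9.71, 9.35 and 8.89, overlapping groups (0.26 ± 0.19; limma adjusted p = 0.550).

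Ion carriers move bicarbonate, protons, sodium, calcium, chloride and phosphate. Of 20 kept probes of 14 genes, 8 had higher and 12 lower means. In limma 0 passed, against 0.614% of all kept probes, and 0 had an unadjusted p under 0.05, against 15.4%. The groups did not overlap for 1 (5%, against 18%). The differences ran from -0.24 to 0.24 with a median of -0.05.

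Slc4a2, the anion exchanger AE2, gave 9.68, 9.71 and 9.66 against 9.53, 9.74 and 9.64 (-0.05 ± 0.09). The phosphate carrier gene Slc20a2 differed by -0.07 ± 0.10 and -0.24 ± 0.14, and Slc8b1, the mitochondrial sodium-calcium exchanger, by 0.24 ± 0.13, with limma adjusted p-values of 0.434 to 0.861. Slc20a1, the other kept phosphate carrier gene of that family, had differences of 0.09 and 0.20 with its 2 probes, and was added after its values were seen.

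Mitochondrial carriers (Slc25), which exchange nucleotides, phosphate, carboxylates and amino acids across the inner mitochondrial membrane, had 34 kept probes of 29 genes. Their means were higher for 18 and lower for 16, and the median was 0.00. The unadjusted p was under 0.05 for 4 (11.8%, against 15.4% of all kept probes).

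The carriers that supply oxidative phosphorylation with phosphate and ADP did not pass. Slc25a3, the phosphate carrier, gave 11.70, 11.35 and 11.52 against 11.66, 11.44 and 11.50, a difference of 0.01 ± 0.12. Slc25a5, the ADP/ATP carrier ANT2, gave 14.26, 14.18 and 14.04 against 13.93, 14.04 and 14.18 (-0.11 ± 0.11; limma adjusted p = 0.671).

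Its relative Slc25a4 (ANT1), known from heart and muscle, gave 6.81, 6.87 and 6.72 against 7.07, 6.98 and 7.11, near background and without overlap (0.26 ± 0.09; limma adjusted p = 0.256). Slc25a39, linked to mitochondrial glutathione import, differed by -0.09 ± 0.09 (limma adjusted p = 0.697).

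Among the other carriers, 52 probes of 41 genes, 24 had higher and 28 lower means, 14 had an unadjusted p under 0.05 (26.9%, against 15.4% of all kept probes), and the groups did not overlap for 16 (30.8%, against 18%). The 16 include a Slc44a2 probe that was kept only through the wild-type group. The class median was -0.03.

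Slc14a1 encodes the urea transporter UT-B of red cells and kidney. Its 4 probes all had lower means in Scl-deleted cells, and 3 of the 4 did not overlap. They gave 10.58, 10.49 and 10.58 against 9.98, 10.14 and 9.86 (-0.55 ± 0.10; limma adjusted p = 0.0619, 0.0252 without wild-type array 3 and up to 0.267 without another), 10.75, 10.79 and 11.004 against 10.23, 10.55 and 10.26 (-0.50 ± 0.12; adjusted p = 0.131), and 11.32, 11.28 and 11.23 against 10.80, 10.92 and 10.87 (-0.41 ± 0.09; adjusted p = 0.1003, 0.0314 without wild-type array 3 and up to 0.408 without another). The last probe gave 12.99, 13.17 and 13.02 against 12.95, 12.70 and 13.02, overlapping groups with a difference of -0.17 ± 0.11 (limma adjusted p = 0.513). Another gene of erythroid cells on the marker list, Aqp1, also had a lower mean in Scl-deleted samples (-0.54 ± 0.11), while the globin gene Hba-a1 had a higher one (1.13 ± 0.42). Of the 10 kept markers of that list 6 had higher means in Scl-deleted samples, and the median difference was 0.10.

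Slc16a9, a monocarboxylate carrier family member linked to carnitine efflux, had the lowest difference of all Slc probes. It gave 7.47, 7.61 and 7.31 on wild-type and 6.92, 6.57 and 6.97 on Scl-deleted arrays, without overlap, and was above background on all wild-type arrays and on 2 Scl-deleted arrays. The difference was -0.64 ± 0.13, 1.56-fold lower, with a limma adjusted p of 0.0903 that was 0.0168 without wild-type array 3 and up to 0.397 without another. Other Slc16 genes with lower means and separate groups were Slc16a6 (MCT7), at 9.64, 9.36 and 9.39 against 9.29, 8.97 and 8.78 (-0.44 ± 0.14; adjusted p = 0.223) and Slc16a13, at 7.11, 7.08 and 7.01 against 6.69, 6.74 and 6.88 (-0.29 ± 0.09; adjusted p = 0.216 in limma). The other Slc16a6 probe had overlapping groups and a difference of -0.13 (limma adjusted p = 0.655). Slc16a13 was above background on all wild-type arrays but on only 1 Scl-deleted array. The lactate exporter gene Slc16a3 (MCT4) differed by 0.05 and 0.02, and Slc16a1 (MCT1) had no kept probe.

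Slc44a2, a choline transporter-like protein that carries a neutrophil antigen in humans, had lower means with all 3 probes. They gave 11.46, 11.64 and 11.21 against 11.17, 10.93 and 11.08 (-0.38 ± 0.13) and 7.99, 7.66 and 7.90 against 7.76, 7.13 and 7.32 (-0.45 ± 0.17), while a probe above background on all wild-type and no Scl-deleted arrays, kept only through the wild-type group, was at least 1.07-fold higher there. The limma adjusted p-values of the first pair were 0.233 and 0.265, and that of the first probe was 0.0345 without wild-type array 3 and up to 0.660 without another. The kept neutrophil markers, 9 of 9, also had lower means, and their part in this was not tested.

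The fatty acid transport proteins (Slc27), which couple uptake to acyl-CoA formation, had higher means in all 3 kept genes, and none of the 3 overlapped, against 18% of all kept probes without overlap. Slc27a4 gave 6.55, 6.54 and 6.87 against 6.93, 7.32 and 7.08 (0.46 ± 0.14; limma adjusted p = 0.190, 0.0302 without wild-type array 3 and up to 0.579 without another). It was above background on only 1 wild-type array and on all 3 Scl-deleted arrays. Slc27a1 and Slc27a3, singled out after their values were seen, differed by 0.28 ± 0.09 and 0.22 ± 0.09 (limma adjusted p = 0.216 and 0.315).

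Separate groups were also seen for Slc66a2, a PQ-loop protein, at 11.06, 11.04 and 11.32 against 11.61, 11.43 and 11.59 (0.40 ± 0.11; adjusted p = 0.168, 0.0244 without wild-type array 3 and up to 0.552 without another), for Slc52a3, a riboflavin carrier, at 7.35, 7.13 and 7.18 against 7.55, 7.40 and 7.72 (0.34 ± 0.11; adjusted p = 0.228), and for Slc46a3, a lysosomal carrier, at 8.51, 8.40 and 8.51 against 8.28, 8.05 and 8.07 (-0.34 ± 0.10; limma adjusted p = 0.189).

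Carriers of dense granule content did not pass. Slc18a2, the vesicular monoamine carrier VMAT2, gave 8.38, 8.31 and 7.65 against 8.19, 8.37 and 8.40 (0.21 ± 0.18). Slc17a9, the vesicular nucleotide carrier, gave 7.74, 7.81 and 7.76 against 7.59, 7.66 and 7.66 with one probe, narrow groups that did not overlap (-0.13 ± 0.09), and differed by -0.02 with the other. The nucleoside carrier gene Slc29a1 (ENT1) differed by 0.10 ± 0.11, and limma adjusted p-values for these genes were 0.486 to 0.970.

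More than 1 probe was kept for 37 Slc genes, and for 24 of them the probes lay on the same side (64.9%), against 58.3% of all named genes with several. The 4 probes of Slc14a1, the 3 of Slc44a2 and the 2 each of Slc5a9, Slc43a1, Slc6a4, Slc35c2 and Slc16a6 were among them. Both Slc5a9 probes were kept only through the Scl-deleted group and 1 Slc44a2 probe only through the wild-type group. The filter set the direction of these probes, so their agreement supports nothing.

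**Figure D3:**
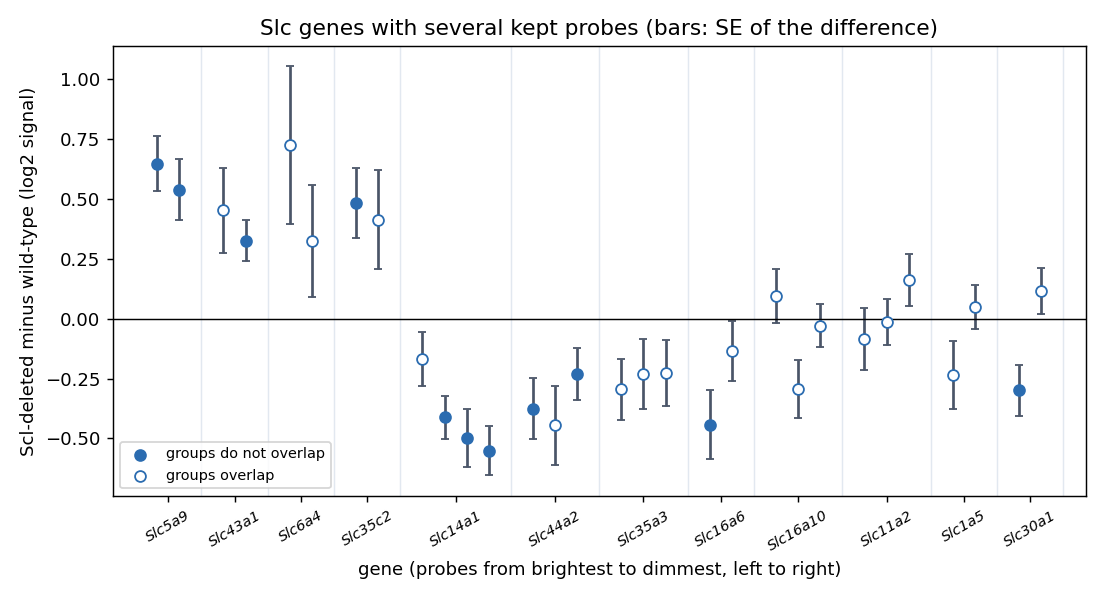
Difference in log2 signal, Scl-deleted minus wild-type, with its SE, for each kept probe of 12 Slc genes chosen after their values were seen; filled points are probes whose groups do not overlap. All 4 Slc14a1 probes lie below 0, from -0.55 to -0.17, while the 2 probes of Slc1a5 and of Slc30a1 lie on opposite sides. Both Slc5a9 probes lie above 0, a direction set by the filter, which they passed only through the Scl-deleted group. The dimmest Slc44a2 probe passed only through the wild-type group.

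The size of many differences depended on the treatment of background. With neqc, which subtracts a modelled background before quantile normalization, the differences of dim probes were larger. Slc45a3 went from 0.73 to 1.30, Slc16a9 from -0.64 to -1.22 and Slc7a7 from 0.48 to 0.92. Bright probes stayed nearly the same, with Slc2a3 at -0.46 and -0.47 and Slc39a11 at 0.52 and 0.54. The 1 Slc probe called in limma with the authors' values, Slc6a13, was not called with neqc, where the 1 called was a Slc5a9 probe that had passed the filter only through the Scl-deleted group.

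**Figure D4:**
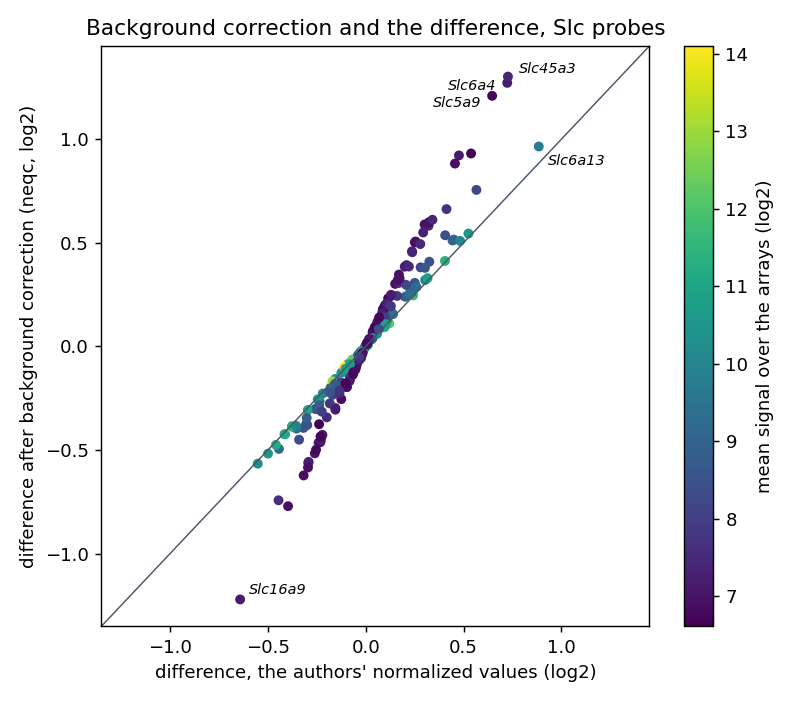
Difference in log2 signal, Scl-deleted minus wild-type, from the authors' normalized values (horizontal axis) and after neqc (vertical axis) for the 209 Slc probes, coloured by mean signal; the line marks equality. Dim probes such as Slc45a3 (0.73 and 1.30) and Slc16a9 (-0.64 and -1.22) lie off the line, and Slc6a13 (0.88 and 0.96) lies close to it.

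The number of Slc probes called changed with each array left out. Without wild-type array 3, 23 Slc probes passed in limma, 14 higher and 9 lower (11% of Slc probes, against 10% of all kept probes), and without any other single array 0 passed, where 23 to 47 had an unadjusted p under 0.05. With arrays weighted by their quality, where wild-type array 3 had a weight of 0.412, 27 Slc probes passed (12.9%, against 10.5% of all kept probes), and 20 were called in both. The Slc share was close to the share of all probes in both fits. Slc5a9, whose probes were kept only through the Scl-deleted group, is among the genes called in both. Called without wild-type array 3 (chosen here after that fit), besides genes given above, were Slc39a7, Slc35a4 and Slc25a1 among the higher and Slc11a1 and the non-carrier gene Slc7a6os among the lower. For Slc39a7, a zinc carrier of the endoplasmic reticulum, array 3 gave 8.71, against 7.90 and 8.04 on the other wild-type arrays and 8.48, 8.76 and 8.63 on Scl-deleted arrays. For Slc11a1, a metal carrier of phagocytes, array 3 gave 8.16, against 8.87 and 8.65 and 8.33, 8.21 and 8.23. In both genes array 3 was the wild-type array that met the Scl-deleted values.

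**Figure D5:**
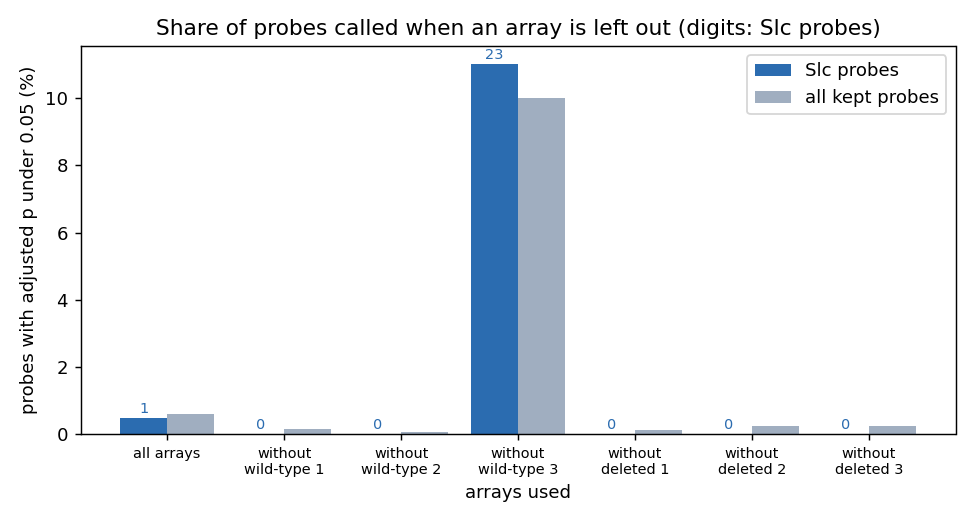
Share of probes (vertical axis, percent) with a limma adjusted p under 0.05 with all arrays and without each array in turn, for Slc probes and all kept probes; digits give the number of Slc probes. The share is 11% and 10% without wild-type array 3 and under 1% in every other fit shown.

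Gene lists related to these carriers showed 0 called probes in limma, against 0.614% of all kept probes. Over amino acid response and serine synthesis genes, 8 of 24 probes had higher and 16 lower means, and the median was -0.14. The unadjusted p was under 0.05 for 7 (29.2%, against 15.4% of all kept probes), a count that includes the Ddit4 probe, kept only through the Scl-deleted group. The transcription factor gene Atf4 gave 9.08, 8.92 and 8.90 against 8.67, 8.30 and 8.11 with one probe (-0.61 ± 0.15; adjusted p = 0.126), and its other probes differed by -0.24 and 0.06. Ddit4, an inhibitor of mTORC1 signalling, was above background on all 3 Scl-deleted and no wild-type arrays, so it was kept only through the Scl-deleted group, where it was at least 1.23-fold higher.

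Of 24 glycolysis probes 11 had higher and 13 lower means, with a median of -0.01. The unadjusted p was under 0.05 for 5 (20.8%, against 15.4% of all kept probes), a count that includes a Pfkp probe kept only through the wild-type group. Hexokinase Hk2 gave 10.59, 10.65 and 10.37 against 10.13, 9.84 and 9.97, without overlap (-0.56 ± 0.12; limma adjusted p = 0.0918), beside the lower Slc2a3 values. One Pfkp probe was above background on all 3 wild-type and no Scl-deleted arrays, so it was kept only through the wild-type group, where it was at least 1.76-fold higher; the other Pfkp probe differed by -0.16.

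Of 14 probes for metal storage and uptake 5 had higher and 9 lower means, and the median was -0.04. An unadjusted p under 0.05 was seen for 0, against 15.4% of all kept probes. The transferrin receptor gene Tfrc differed by -0.19 ± 0.09 and the metal-responsive factor gene Mtf1 by -0.17 ± 0.09 (limma adjusted p = 0.358 and 0.434).

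Transporters of the Abc and Slco families, 38 probes of 25 genes, had 25 higher and 13 lower means and a median of 0.08. The unadjusted p was under 0.05 for 9 (23.7%, against 15.4% of all kept probes). Abcc5, a nucleotide and organic anion exporter, gave 9.48, 9.70 and 9.42 against 8.90, 8.92 and 9.04 (-0.58 ± 0.11; limma adjusted p = 0.0596). Slco4a1, an organic anion transporter, gave 9.51, 9.50 and 9.29 against 10.03, 9.998 and 9.84 (0.53 ± 0.10; limma adjusted p = 0.0777). Neither gene's groups overlapped.

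Of the 8 Slc probes on the X chromosome 3 had higher and 5 lower means, with a median of -0.02. An unadjusted p under 0.05 in limma was seen for 0, against 15.4% of all kept probes. The groups did not overlap for 3 of them (18% of all kept probes), including Slc25a53 (-0.22) and Slc6a8, the creatine carrier (-0.08), both chosen after their values were seen. With the Xist level as a covariate 0 Slc probes passed and 1 of all kept probes did, and Slc6a13 had a difference of 0.84 with a limma adjusted p of 0.436.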

How the data were processed

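Biotin-labelled RNA from the sorted cells was measured on Illumina bead arrays, 1 array for each sample, per the labels. The authors deposited log2 values that were not normalized, a detection score per probe and array, and normalized log2 values. The score ran opposite to its header's p-value (lowest rank correlation with signal 0.997), so 1 minus the deposited score was used as detection p-value. The authors' normalized log2 values lay within 0.0865 of plain quantile normalization, with a median of 6.46 on every array. The submitters' processing notes name limma; no other step is known here. This normalization removes any shift common to most genes. Unnormalized medians were 6.43 to 6.65, and 15183 to 16338 probes per array were above background. The number of arrays limits the precision.

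Here the normalized values of 16122 kept probes were fitted with lmFit and eBayes of limma 3.58.1 in R 4.3.3, as a two-sided test with p-values adjusted by Benjamini-Hochberg across every kept probe and a threshold of 0.05. The fit was checked on simulated data. Where no array of a group was above background, a lower bound on the fold was computed, setting each undetected value to the lowest detected signal of its array unless its own was higher. The platform annotation gave 1 symbol for 29976 of 46632 probes, several for 10 and none for 16646; the RefSeq table of GRCm38.p6 changed 0 Slc symbols.

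The members and gene lists were chosen with earlier results of these data known. Named were called Slc probes, the 12 highest and 12 lowest differences without overlap, the 3 brightest probes of each class, 22 of 26 fixed genes that had a kept probe, and in related lists the 2 genes with the smallest p; this gave 48 Slc genes with 69 probes. Substrate classes follow family numbers; genes named after a carrier were set apart after their names, not values, were seen. Alternatives were neqc (offset 16), plain quantile normalization, median scaling, no filter, a filter of detection p under 0.01 on all 6 arrays, a trend and robust prior, array weights, a block for replicate number, 1 probe a gene, Xist as a covariate, an adjusted p under 0.1 and leaving out each array. Deviations of same-numbered arrays correlated at 0.11, -0.33 and -0.22. With 3 arrays a group such values cannot exclude pairing, and the main fit did not use it.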

Additional observations from a re-analysis of the deposited data

How the results depend on the processing

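The number of Slc probes called, 1 with the main settings, was 0 with plain quantile normalization, 0 with median scaling, 0 with no detection filter, 2 with a trend and robust prior, 27 with array weights, 0 with the replicate number as a block, 3 with 1 probe a gene, 0 with Xist as a covariate and 7 with an adjusted p under 0.1. Slc5a9, whose probes were kept only through the Scl-deleted group, is among the genes in the 2, the 27, the 3 and the 7. Over all kept probes, 99 were called with the main settings, 2 with median scaling, 1694 with array weights, 3 with the replicate number as a block, 1 with Xist as a covariate and 214 with an adjusted p under 0.1; other settings gave 69 to 124. The limma call of Tal1, at -2.29, was lost with neqc (-2.30, adjusted p = 0.0589), plain quantile normalization (-2.25, adjusted p = 0.0502), median scaling (-2.19, adjusted p = 0.208), no detection filter (-2.29, adjusted p = 0.0592), a trend and robust prior (-2.29, adjusted p = 0.0546), the replicate number as a block (-2.29, adjusted p = 0.103) and Xist as a covariate (-1.90, adjusted p = 0.432). Median differences that moved by more than the replicate spread all stayed within -0.26 and 0.17. With median scaling the median was 0.027 for all Slc, -0.0010 for ion, 0.032 for mitochondrial, -0.0069 for other, -0.079 for amino acid response and serine synthesis, 0.049 for glycolysis and 0.010 for metal storage and uptake. With the stricter filter the median was 0.084 for amino acid, -0.024 for ion, 0.10 for nucleotide sugar, -0.26 for sugar and 0.16 for Abc and Slco transporters. With Xist as a covariate the median was 0.062 for amino acid, -0.023 for ion, -0.13 for nucleotide sugar, -0.048 for other, -0.071 for amino acid response and serine synthesis and 0.029 for Abc and Slco transporters. With no detection filter the median was -0.0049 for ion, 0.00052 for other, 0.036 for sugar, -0.044 for amino acid response and serine synthesis and 0.0059 for Abc and Slco transporters. With array weights the median was -0.00054 for ion, -0.086 for amino acid response and serine synthesis and 0.057 for glycolysis. With neqc the median was 0.12 for metal, 0.17 for sugar and 0.13 for Abc and Slco transporters. With 1 probe a gene the median was 0.0049 for other and 0.011 for Abc and Slco transporters. Slc probes that did not pass and turned direction lay between -0.16 and 0.14 where they did. With Xist as a covariate the difference was -0.10 for Slc35d3, 0.040 for Slc20a2, 0.14 for Slc31a1, -0.066 for Slc6a4, -0.16 for Slc35b2, 0.10 for Slc6a6, 0.023 for Slc25a5, 0.031 for Slc11a2, -0.031 for Slc25a3 and -0.013 for Slc16a3. With median scaling the difference was 0.027 for Slc4a2, 0.059 for Slc31a1, 0.040 for Slc35b1 and 0.060 for Slc6a6. With array weights the difference was 0.014 for Slc31a1 and -0.0056 for Slc25a3.

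Without each array in turn, 0 to 23 Slc probes and 11 to 1618 of all kept probes were called, the highest numbers without wild-type array 3, and Tal1 ran from -2.60 to -1.79, with its call lost without wild-type arrays 1 and 2 and Scl-deleted arrays 1 and 3. Medians then ran from -0.0024 to 0.021 for all Slc, -0.0068 to 0.055 for amino acid, -0.048 to 0.0098 for ion, 0.020 to 0.081 for metal, -0.015 to 0.045 for mitochondrial, -0.040 to 0.011 for other, 0.038 to 0.15 for sugar, -0.17 to -0.072 for amino acid response and serine synthesis and -0.044 to 0.067 for glycolysis. Probes that turned direction in one of these fits ran from -0.073 to 0.028 for Slc11a2, -0.10 to 0.0068 for Slc4a2, -0.14 to 0.0080 for Slc20a2, -0.15 to 0.093 for Slc17a9, -0.078 to 0.067 for Slc31a1, -0.13 to 0.029 for Slc35b1, -0.017 to 0.26 for Slc35b2, -0.15 to 0.081 for Slc6a6, -0.18 to 0.043 for Slc11a2, -0.025 to 0.34 for Slc18a2, -0.082 to 0.23 for Slc40a1, -0.073 to 0.10 for Slc25a3, -0.0055 to 0.11 for Slc16a3 and -0.035 to 0.054 for Slc16a3. Why these values moved was not tested. Whether replicate numbers pair the arrays cannot be told from so few arrays. Of the 209 probes 37 were not above background on every array, and 3 arrays a group limit the precision of all values.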
